A study of Sus scrofa with 30 samples.

Results

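The embryos described here were all 10 pig embryos of Day 12, 5 female and 5 male, out of 30 that were sequenced singly, 10 for each of Days 8, 10 and 12. They were chosen by their day alone, so no measured value entered the choice. All came from the same kind of cross, German Landrace × Pietrain gilts inseminated from a single Pietrain boar. The gilts had been cycle-synchronised with altrenogest and gonadotropins (PMSG and hCG), and no other treatment is stated. Sex was set by PCR on embryo DNA. The 10 embryos of Day 10 and the 10 of Day 8 were of the same kind of cross. Each day had 4 gilts of its own, so the age of the embryos and their mothers cannot be told apart. RNA came from whole embryos, so disc and extraembryonic membranes were read together, and fewer cells of a type cannot be told apart from less RNA per cell. Which gilt an embryo came from is not stated, but 10 embryos of 4 gilts include littermates, which every test here took as independent. Embryos of high RNA quality were chosen for sequencing, and all p-values measure the spread between these embryos only.

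By this day the pig conceptus is turning from a sphere into a long filament. Its outer layer, the trophectoderm, makes nearly all of the surface and releases signals to the uterus: estrogens, prostaglandins, cytokines and a pair of interferons, gamma and delta. Under it lies the extraembryonic endoderm, a secretory sheet rich in apolipoproteins and basement membrane proteins, and extraembryonic mesoderm begins to spread between both layers. The embryonic disc, which holds the epiblast, is small beside them.

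The marker genes were those of such a conceptus. Of 32 trophectoderm markers 31 were in the table, and together they took 2.47 to 5.51% of the counts of an embryo. Endoderm markers took 0.211 to 0.804%, epiblast markers 0.124 to 0.191% and mesoderm markers 0.114 to 0.196%. HAND1, a regulator of trophoblast and mesoderm, made up most of the mesoderm sum at 1115 ± 383 CPM (SD, n = 10), where CPM is the usual depth-scaled count after trimmed mean of M-values (TMM) normalisation. The list of mesoderm markers was thin, with 15 of 48 symbols in the table and 7 at a mean of 5 CPM or more. DNMT3B, a DNA methyltransferase of early embryos, stood at 482 to 1083 CPM, whereas the pluripotency factor POU5F1 reached 4.48 CPM in d12_f_245 and 2.54 CPM or less in the others. NANOG and SOX2 are not analysed here.

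Markers of maternal cells were at a low level. Endometrial markers summed to 0.00861 to 0.0117% of counts, mostly WNT7A, which epithelia of the embryo also express. Leukocyte markers summed to 0.00918 to 0.0158%, nearly all AIF1 and ITGAM, and blood markers to 0.000657 to 0.00434%. The globin HBB lay between 0.123 and 8.74 CPM.

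Libraries held 6059221 to 33990421 counts over 12220 genes, and 3 counts, the floor used for low values, were worth 0.0894 CPM in the largest library and 0.481 CPM in the smallest. Floors cover counting error only. The smallest library, d12_f_245, and d12_f_271, with 16892107 counts, stood apart from the other 8. On the first principal component, which held 45.6% of the variance, they lay at -71.4 and -55.7, while the others ran from -14.1 to 34.6. Long genes were also low in both, as shown further on, so values without them stand beside the results on spread, gene length and library total.

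Counts were spread over many genes. The 10 most abundant genes took 8.09% of all counts (5.996 to 10.6% by embryo), the 100 most abundant 25.5% and the 1000 most abundant 60.1%. Abundance here is a share of counts. Transcript lengths were not given, so levels of different genes are not compared per length. Without d12_f_245 and d12_f_271, 17 of the 20 most abundant genes were among the top 20 again.

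**Figure D1:**
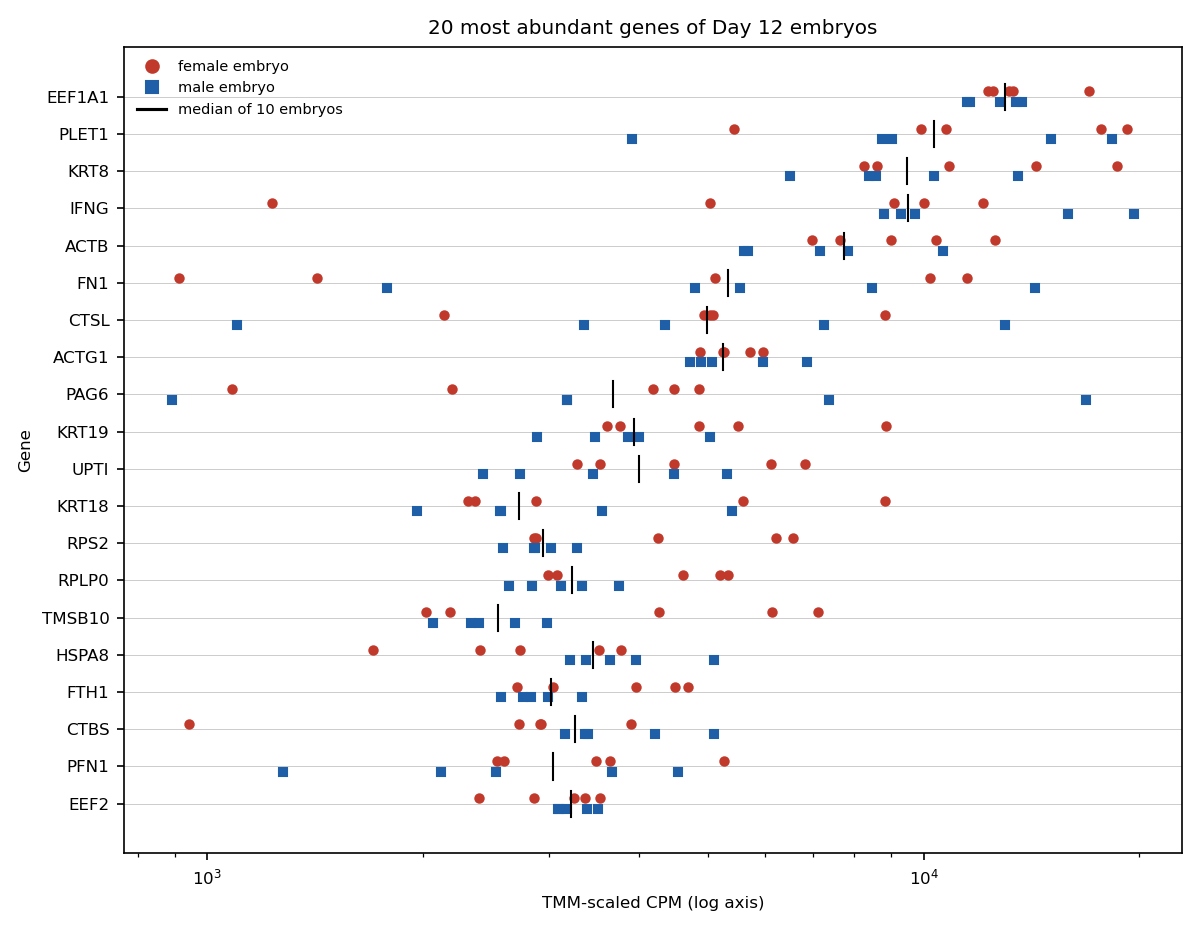
Levels of the 20 most abundant genes, as TMM-scaled CPM on a log axis, with 1 symbol for each of 5 female (red circles) and 5 male (blue squares) Day 12 embryos and a black bar at the median. EEF1A1, ACTG1 and EEF2 form narrow groups, whereas IFNG, FN1, CTSL and PAG6 spread over 10-fold or more, from 893 to 16864 CPM for PAG6.

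EEF1A1, the factor that brings aminoacyl-tRNA to the ribosome, was the most abundant gene at 13127 ± 1558 CPM. It lay between 11499 and 13699 CPM in 9 embryos and at 17016 CPM in d12_f_271. Its level differed little from Day 10, with a log2 change of -0.03 ± 0.08 (SE). The elongation factor EEF2, at 2393 to 3537 CPM, was as steady.

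The trophectoderm surface and its keratins gave the next genes. PLET1, a membrane protein of trophoblast and other progenitor cells, stood at 5438, 17692, 19239, 9924 and 10729 CPM in the females (in the order d12_f_245, d12_f_271, d12_f_289, d12_f_297 and d12_f_299) and at 9033, 8747, 18290, 15036 and 3917 CPM in the males (in the order d12_m_249, d12_m_275, d12_m_276, d12_m_286 and d12_m_307). The sexes overlapped over the whole range, and the lowest embryos were d12_m_307 and d12_f_245. In the joint fit of the 30 embryos its mean rose from 9.50 ± 5.26 CPM on Day 10 to 11273 ± 5276 CPM on Day 12, a log2 change of 10.22 ± 0.66 with an adjusted p of 2.6e-14 (edgeR quasi-likelihood test, Benjamini-Hochberg). KRT8 and KRT18, the paired keratins of simple epithelia, moved the other way. KRT8 stood at 14361, 18579, 10860, 8613 and 8262 CPM in the females and at 10343, 6514, 8589, 8374 and 13515 CPM in the males, high in d12_f_271, d12_f_245 and d12_m_307. It fell by 1.26 ± 0.13 on the log2 scale against Day 10, and KRT18, at 1963 to 8830 CPM, fell by 2.21 ± 0.19. KRT19 differed from Day 10 by 0.32 ± 0.14, short of the threshold.

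Genes of secreted proteins followed. Interferon gamma, IFNG, stood at 1231, 5031, 9992, 9092 and 12090 CPM in the females and at 8795, 9288, 19646, 15870 and 9712 CPM in the males. It was lowest in the embryos that stood apart and highest in d12_m_276 and d12_m_286. It had been at 48.3 ± 26.3 CPM on Day 10 and rose by 7.65 ± 0.56 on the log2 scale. PAG6, a pregnancy-associated glycoprotein of the aspartic protease family, stood at 1083, 2196, 4854, 4182 and 4473 CPM in the females and at 3175, 3178, 16864, 7384 and 893 CPM in the males. Here d12_m_276 was more than 2-fold above the next embryo, and d12_m_307 was lowest. PAG6 was at 0.516 ± 0.353 CPM on Day 10. Genes of its family are near copies of each other, and LOC100522849 (chr2:10340130-10349422, Sscrofa11.1) lies within the span of PAG6 (chr2:10311350-10386887), so reads of these genes may be shared.

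Proteases and their inhibitors were among the most abundant genes. The lysosomal protease CTSL stood at 2142, 4936, 8821, 5030 and 5082 CPM in the females and at 4353, 3355, 12974, 7264 and 1101 CPM in the males, again highest in d12_m_276 and lowest in d12_m_307. It rose by 3.60 ± 0.29 from Day 10. CTBS, which cleaves chitobiose from glycoproteins, lay at 942 CPM in d12_f_245 and at 2719 to 5094 CPM in the other 9, and rose by 5.95 ± 0.34. UPTI, a plasmin and trypsin inhibitor of the pig uterus and conceptus, lay at 2425 to 6836 CPM and rose by 2.18 ± 0.19.

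The remaining genes of the top 20 served the cytoskeleton, matrix, translation and iron storage. ACTB lay at 5617 to 12574 CPM and ACTG1 at 4710 to 6870 CPM, and neither passed the threshold against Day 10. The actin monomer binding proteins TMSB10 and PFN1 rose by 1.26 ± 0.21 and 1.25 ± 0.15. TMSB10 stood at 4271, 7111 and 6142 CPM in d12_f_245, d12_f_271 and d12_f_289 and at 2016 to 2982 CPM in the other 7 embryos. The ferritin heavy chain FTH1 lay at 2569 to 4683 CPM.

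Fibronectin, FN1, stood apart in this company by its spread. It stood at 1423, 913, 5108, 11473 and 10195 CPM in the females and at 8456, 14315, 5538, 4796 and 1780 CPM in the males. The highest embryos were d12_m_275, d12_f_297 and d12_f_299, and the lowest were d12_f_271, d12_f_245 and d12_m_307. FN1 was the only gene of the matrix list in the top 20, and it rose by 1.43 ± 0.34 from Day 10. This call was lost without d12_f_297, d12_f_299, d12_m_249 or d12_m_275, with adjusted p of 0.00121 to 0.00204 (edgeR, threshold 0.001), whereas without d12_f_245 and d12_f_271 the rise was 1.70 (adjusted p = 2.03e-06).

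Of the 20 most abundant genes, 9 passed the test as higher than on Day 10 and 2 as lower, the latter both keratins. Over all 13103 genes tested, 14.9% were called higher and 8.39% lower, with an FDR of 0.001 and a log2 change over 1. Against Day 8, 10 of the 20 were higher and 1 was lower, where 22.0% of all genes were called higher and 10.4% lower. The 20 were chosen for a high level on Day 12, which by itself favours calls as higher on that day. Of the 20, 5 were also in the top 20 of Day 10 and 7 in that of Day 8. By function, the 100 most abundant genes held 26 ribosomal protein genes, 8 of the actin list, 4 trophectoderm markers and 3 glycolysis genes. Among the latter was GAPDH, at 1931 to 4057 CPM, which rose by 1.23 ± 0.14.

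The gene lists placed these changes in a wider frame. Over all genes tested, 14.9% were called higher than on Day 10 and 8.39% lower, which stands beside each count here. In the matrix list 19 of 26 genes were higher than on Day 10 and 2 lower, with a median log2 change of 1.66 beside 0.04 over all genes. The type IV collagen chain COL4A1, which forms basement membranes, lay at 726 to 2354 CPM and rose by 1.91 ± 0.19, and the laminin chain LAMC1, at 464 to 2016 CPM, by 1.69 ± 0.18. Endoderm markers were higher for 14 of 23 genes and lower for 3 (median 1.72), and mesoderm markers for 8 of 15 (median 1.75). The interferon response list had 12 of 27 genes higher and none lower, its median being 1.46. The antigen loading protein TAPBP, at 9.60 to 63.8 CPM on Day 12, rose by 2.79 ± 0.26. The members stayed far below IFNG itself, with a median over the list of 5.00 CPM.

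Steroid synthesis was low on Day 12. Of 14 genes 12 were lower than on Day 10 and 1 was higher, with a median log2 change of -3.94. Over all genes tested, 8.39% were lower and 14.9% higher. The aromatase CYP19A1, which makes estrogens from androgens, was at 1854 ± 1333 CPM on Day 10 and stood at 14.4, 28.96, 78.8, 69.5 and 68.1 CPM in the Day 12 females and at 10.97, 50.6, 91.1, 52.0 and 6.84 CPM in the males. It was lowest in d12_m_307, d12_m_249 and d12_f_245 and highest in d12_m_276. HSD17B1, the enzyme that converts estrone to estradiol, fell by 3.98 ± 0.26. The conceptus interleukin IL1B2, named after its values were seen, fell by 6.77 ± 0.50 to 34.7 to 260 CPM.

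Among the 9814 genes at a mean of 5 CPM or more, the SD of log2 CPM over the 10 embryos had a median of 0.38, with quartiles at 0.26 and 0.55. Counting error alone would give a median SD of 0.06, and 9808 genes were above their own counting value. The SD was over 1 for 442 genes and under 0.2 for 1169. Without d12_f_245 and d12_f_271 the median was 0.26 and 270 of 9766 genes were over 1. The 100 most abundant genes were no steadier than the median gene, with a median SD of 0.38, and 5 of them were over 1. Across all genes at 5 CPM or more, however, the SD was lower at a higher mean log2 CPM (r = -0.26). The limit of 5 CPM lay between A2ML1, at 5.00 CPM with an SD of 1.08, and DUOX1, at 4.996 CPM with an SD of 0.55.

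The spread was compared with that of the earlier days. Over 8487 genes at 5 CPM or more on each day, the median SD went from 0.17 (Day 8) to 0.22 (Day 10) and 0.36 (Day 12), and 34, 53 and 167 genes, respectively, were over 1. The Day 12 median was 0.25 without d12_f_245 and d12_f_271, when 73 genes were over 1. Library totals also varied most on Day 12, with an SD of log2 totals of 0.69 (0.37 without both), beside 0.41 on the first day and 0.23 on the next, and their part in the spread was not tested. Of the 442 variable genes, 226 (51.1%) were called higher than on Day 10 and 37 (8.37%) lower. Over all genes at 5 CPM or more these shares were 13.3% and 6.31%. All of these genes, variable or not, were kept by their Day 12 mean alone, which favours genes higher on that day. Of 270 variable genes without d12_f_245 and d12_f_271, 153 (56.7%) were higher and 18 (6.67%) lower.

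**Figure D2:**
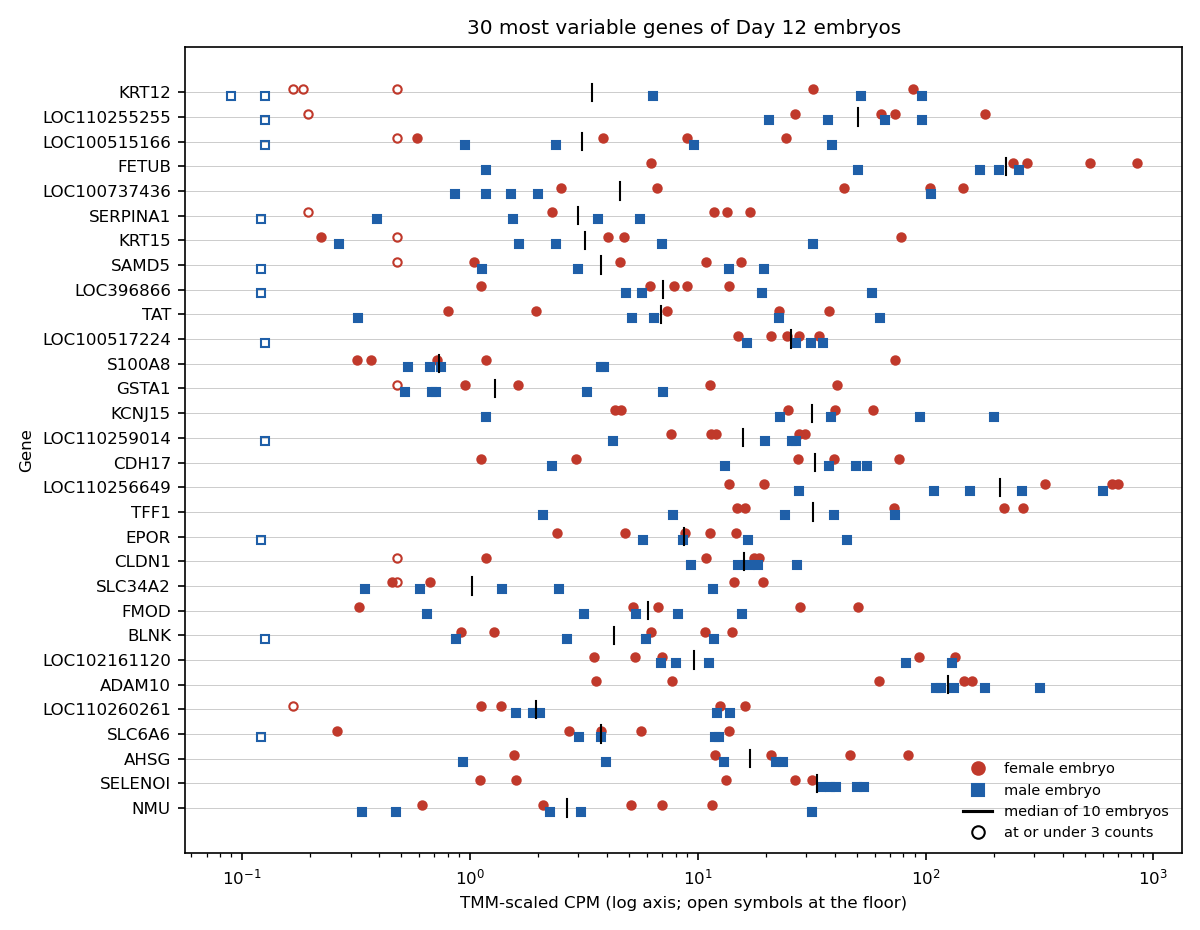
The 30 genes with the largest SD of log2 CPM, as TMM-scaled CPM on a log axis, with 1 symbol per Day 12 embryo (red circles female, blue squares male), open at or under the floor of 3 counts, and a bar at the median. For S100A8, 1 embryo at 73.4 CPM stands far above the other 9, whereas KRT12 splits into 5 embryos at 6.37 CPM or more and 5 at the floor.

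The 30 most variable genes, Y-linked genes left aside, ran from KRT12 with an SD of 4.52 to NMU with 1.99, TF with 1.96 lying just outside. At least 1 embryo was at the floor for 16 of them. Against Day 10, 14 were higher and 3 were lower, under the same limit on the Day 12 mean. Over all genes at 5 CPM or more, 13.3% were higher and 6.31% lower. Without the embryos that stood apart, 23 of the 30 were again among the 30 most variable.

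Serum proteins that the fetal liver and yolk sac secrete formed one group. FETUB, a fetuin that inhibits proteases, stood at 279, 6.26, 243, 845 and 528 CPM in the females and at 174, 50.4, 210, 256 and 1.17 CPM in the males, a range of 720-fold. Its neighbour AHSG, the related fetuin A, ran from 0.931 CPM in d12_m_307 and 1.57 CPM in d12_f_271 to 84.2 CPM in d12_f_299. SERPINA1, the main inhibitor of neutrophil elastase in serum, was at 0 in the same pair of embryos, d12_f_271 and d12_m_307, and highest, at 17.0 CPM, in d12_f_297. Transferrin, TF, the iron carrier of plasma, had the same extremes with 1.24, 1.98 and 84.3 CPM. All of these were low in d12_f_271 and d12_m_307 and high in d12_f_297 and d12_f_299.

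Keratins and barrier genes gave another set without a shared pattern. KRT12 was at 0, 32.1, 0.0558, 88.2 and 0 CPM in the females and at 96.6, 6.37, 0.0419, 0.0596 and 52.2 CPM in the males, so that 5 embryos were at the floor. KRT15, which is typical of basal epithelial cells, was at 77.8 CPM in d12_f_299 and at 0.223 to 32.05 CPM in the others. It lies beside KRT19 on chromosome 12 (chr12:21124605-21130247 and chr12:21115453-21119115), which had a narrow range of 2882 to 8843 CPM. The tight junction protein CLDN1 was at the floor in d12_f_245 and at 1.17 CPM in d12_f_271, against 9.35 to 27.2 CPM in the other 8, among which its SD was 0.48. The trefoil peptide TFF1, which mucous epithelia secrete, was at 269 and 221 CPM in d12_f_245 and d12_f_271 and at 2.10 CPM in d12_m_276.

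A group of genes was highest in d12_m_276. The potassium channel KCNJ15 stood at 4.32, 4.63, 24.96, 39.9 and 58.6 CPM in the females and at 23.0, 38.3, 200.5, 94.4 and 1.17 CPM in the males. The erythropoietin receptor EPOR was at 45.5 CPM in d12_m_276, at 16.7 CPM in d12_m_286 and at the floor in d12_m_307. TAT, which breaks down tyrosine, was at 63.4 CPM in d12_m_276 and at 0.324 CPM in d12_m_307. The uncharacterised LOC396866 followed the same order, with 58.3 CPM in d12_m_276 and the floor in d12_m_307. The globin HBB was at 0.168 CPM in d12_m_276.

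Other genes turned on the embryos that stood apart. The membrane protease ADAM10 was at 7.69 and 3.59 CPM in d12_f_245 and d12_f_271 and at 62.6 to 316.6 CPM in the other 8. SELENOI, a selenoprotein of phospholipid synthesis, was at 1.60 and 1.11 CPM there and at 13.3 to 53.7 CPM in the others. Without this pair the SD of ADAM10 went from 2.09 to 0.67 and that of SELENOI from 2.01 to 0.63. S100A8, a calcium-binding protein best known from neutrophils, was at 73.4 CPM in d12_f_245 and at 0.321 to 3.901 CPM in the others. The related gene S100A12 behaved likewise, with 27.7 CPM against 0.247 to 4.07 CPM. The leukocyte list, which rests on 2 genes at 5 CPM or more, was lowest in that embryo, and the source of these transcripts was not tested.

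Levels of whole gene lists were compared between embryos as the mean of centred log2 CPM over the members at 5 CPM or more. The correlations of such levels over 10 embryos are given as descriptions without a test, since the points share libraries, depth and gene length class.

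**Figure D3:**
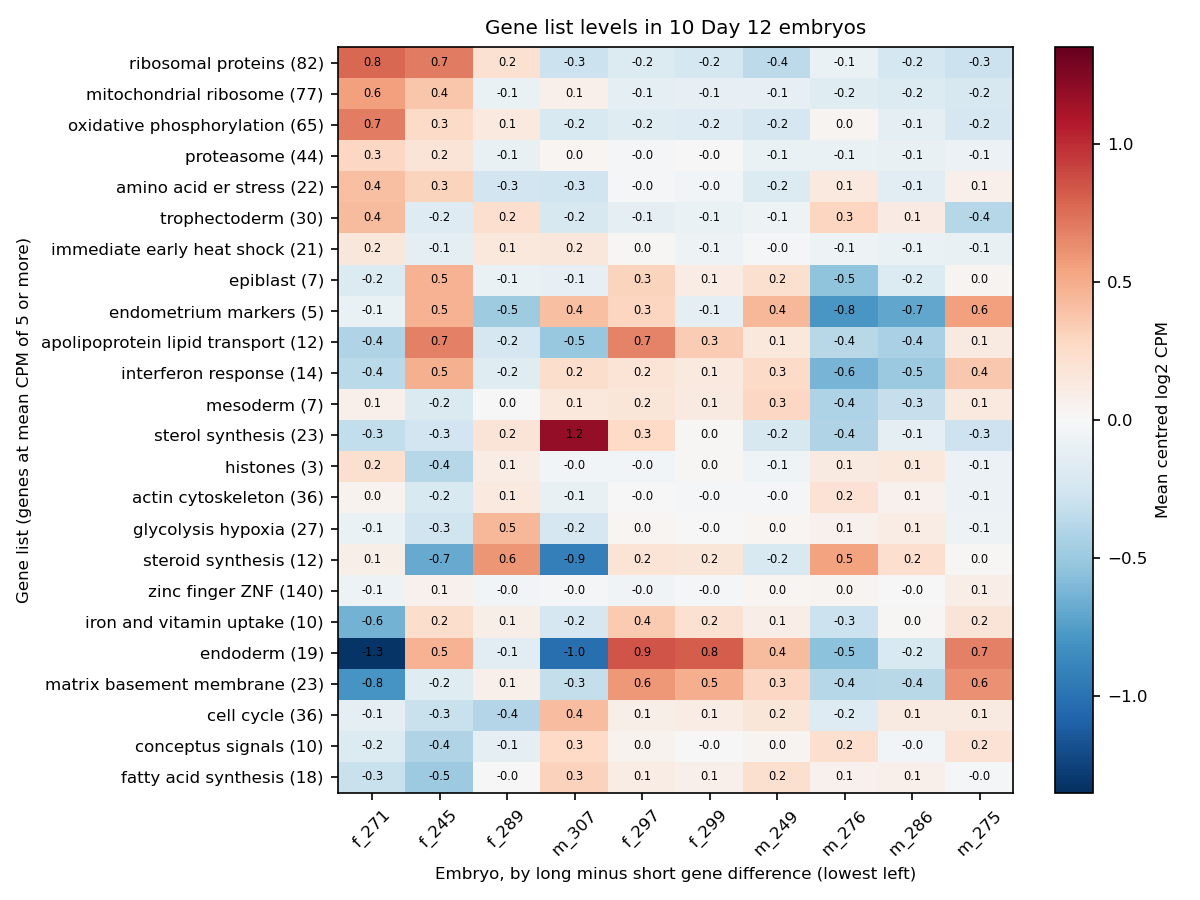
Mean centred log2 CPM of each gene list (rows, with the number of genes) in the 10 Day 12 embryos (columns, ordered by the long minus short gene difference, lowest at left), from blue for low to red for high with each value printed. Ribosomal proteins are high in d12_f_271 and d12_f_245 at the left, endoderm and matrix genes are low in d12_f_271 and d12_m_307, and sterol synthesis stands out in d12_m_307 at 1.18.

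Endoderm markers, basement membrane genes and lipid carriers went together. The endoderm level was 0.47, -1.33, -0.15, 0.85 and 0.81 in the females and 0.43, 0.68, -0.55, -0.21 and -1.02 in the males. It was high in d12_f_297, d12_f_299 and d12_m_275 and low in d12_f_271 and d12_m_307, and its range of 2.18 was wider than that of any other list of 5 genes or more. Its correlation with the matrix list was 0.90 (rho 0.89), and with apolipoproteins and lipid transport 0.85 (rho 0.84). Without d12_f_245 and d12_f_271 the second was 0.94, and after removal of the length class difference it was 0.95. The level had little relation to the library total (r = -0.15). Such relations were not particular to endoderm. The epiblast list, of 7 genes, had a correlation of 0.86 with lipid carriers and of 0.68 with endoderm (rho 0.87 and 0.81). Iron and vitamin uptake had 0.84 with the matrix list.

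Some single genes showed an order close to that of the endoderm level, and others did not. HNF4A, a regulator of endoderm and liver genes, stood at 251, 31.96, 132, 275.9 and 247 CPM in the females and at 191, 293, 95.1, 148 and 54.1 CPM in the males. PDGFRA, the receptor that marks primitive endoderm and was named after its values were seen, ran from 47.7 CPM in d12_f_271 and 80.7 CPM in d12_m_307 to 965 CPM in d12_m_275. LAMA1, a laminin chain of early basement membranes, was at 414 to 2004 CPM. DAB2, an endocytic adaptor on the same list, was steady by contrast, with an SD of 0.28. LRP2, the receptor megalin, was at 427 to 1545 CPM and lowest in d12_f_245.

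Within the lipid carriers, APOA1 and APOE were highest in d12_f_245. APOA1, the main protein of high density lipoprotein, stood at 6673, 2005, 2214, 3479 and 3071 CPM in the females and at 2270, 3393, 1456, 1360 and 1153 CPM in the males. APOE, a ligand of lipoprotein receptors, was at 2890 CPM in d12_f_245 and at 311 to 982 CPM in the others, and APOA2 at 181 against 27.1 to 67.0 CPM. MTTP, which loads lipid onto apolipoprotein B, was instead highest in d12_f_299 at 91.6 CPM. The fatty acid binding protein FABP3 stayed between 612 and 935 CPM. Against Day 10, 6 of the 18 genes of this list were higher and 2 lower, with a median of 0.64. Over all genes tested, 14.9% were higher and 8.39% lower.

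Mesoderm markers did not move as one group. The median correlation between pairs of the 7 genes was -0.23, beside 0.56 for the endoderm list and 0.01 over all genes. TAGLN, an actin-binding protein of smooth muscle, was at 191 CPM in d12_f_271 and 167 CPM in d12_m_307 and at 11.2 to 51.9 CPM in the others. BMP4, a growth factor of the mesoderm, was at 0.965 and 1.61 CPM in d12_m_276 and d12_m_286 and at 2.40 to 15.6 CPM elsewhere. HAND1 ran in another order, being highest in d12_m_276 at 1894 CPM. The list as a whole had a correlation of 0.26 with endoderm and 0.29 with lipid carriers, and the sign of the first changed under other settings.

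Trophectoderm markers went against several lists. Their level ran from -0.38 in d12_m_275 to 0.43 in d12_f_271, with a correlation of -0.63 to the endoderm list and -0.86 to the interferon response list (rho -0.53 and -0.82). Without d12_f_245 and d12_f_271 these were -0.43 and -0.90, but over genes at a mean of 20 CPM or more the second was -0.45. The interferon response list was lowest in d12_m_276 and d12_m_286, at -0.63 and -0.50, the embryos with the most IFNG. Its gene SLA-2, a class I histocompatibility gene, was at 3.98 and 4.20 CPM there and at 32.1 CPM in d12_m_307. The endometrial marker list, with 5 genes at 5 CPM or more, was also lowest in d12_m_276 and d12_m_286, at -0.78 and -0.70. It had a correlation of 0.92 with the interferon response list and of -0.77 with trophectoderm markers (rho 0.95 and -0.76). Whether these lists read embryonic or maternal RNA was not tested.

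Genes of sterol synthesis set d12_m_307 apart. Their level was 1.18 in that embryo and -0.41 to 0.26 in the others. HMGCS1, an early enzyme of the pathway, stood at 67.6, 113, 339, 331 and 295 CPM in the females and at 193, 218, 275.4, 342 and 623 CPM in the males. SCD, which desaturates fatty acids, was at 2140 CPM in d12_m_307 and at 425 to 1286 CPM in the others. The same embryo had PTGS2, the inducible prostaglandin synthase, at 2846 CPM, whereas the other 9 lay at 175 to 610 CPM. It also had the lowest level of steroid synthesis genes, at -0.92, and the highest of the cell cycle list, at 0.41.

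Hypoxia-responsive genes set d12_f_289 apart. NDRG1 was at 369 CPM there and at 36.6 to 153 CPM in the others, and DDIT4 at 44.1 against 3.60 to 22.0 CPM. The glycolysis and hypoxia list stood at 0.45 in this embryo and at -0.27 to 0.11 in the others. In d12_f_245 UTF1, a chromatin factor of pluripotent cells, was at 53.0 CPM and the stress regulator NUPR1 at 127 CPM, against at most 9.78 and 41.5 CPM elsewhere.

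Embryos could be ordered by how far apart they were over all genes. The closest pair was d12_f_297 and d12_f_299, with a root mean square difference of 0.26 in log2 CPM, followed by d12_m_249 and d12_m_275 at 0.39 and d12_m_276 and d12_m_286 at 0.40. The farthest pair was d12_f_245 and d12_m_276 at 1.23. Over the 442 genes with an SD over 1, d12_m_276 was the lowest or the highest embryo for 198 genes, d12_f_245 for 194, d12_f_271 for 128 and d12_m_307 for 122, whereas d12_m_249 was so for 13. Y-linked genes were not left aside here. Where embryos tied without any counts, the lowest place was not shared among them, so these tallies are approximate.

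The 500 most variable genes, from an SD of 0.96 upwards, fell into 4 clusters of 41 to 205 genes and a pair of clusters of 3 and 2. Clusters were cut from these same values, so their differences between embryos are descriptions.

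**Figure D4:**
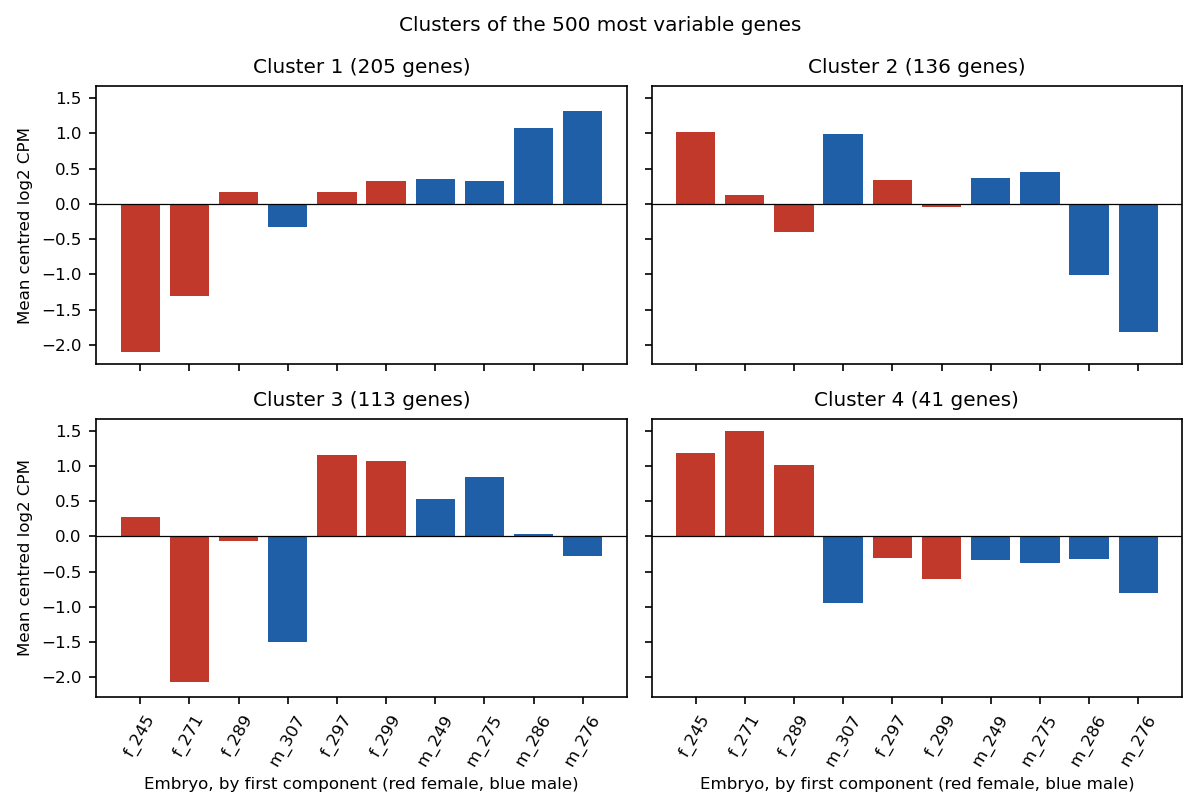
Mean centred log2 CPM (vertical axis) of the 4 larger clusters of the 500 most variable genes in each Day 12 embryo (bars, red female and blue male), with embryos ordered by the first principal component. Cluster 1 goes from -2.10 in d12_f_245 to 1.32 in d12_m_276, cluster 2 is lowest in d12_m_276 and d12_m_286, cluster 3 is lowest in d12_f_271 and d12_m_307, and cluster 4 is high in 3 females.

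Cluster 1, with 205 genes, rose along the first component. Among the genes nearest to its mean were the giant cadherin FAT1, the Wnt receptor FZD6 and the aminopeptidase LNPEP. LNPEP stood at 1.60, 4.50, 34.4, 42.7 and 59.1 CPM in the females and at 37.2, 34.1, 106, 79.0 and 27.9 CPM in the males. The hydrolase ABHD2 had the same extremes, at 92.3 and 1226 CPM. IFNG, PAG6, CYP19A1 and TFRC, the transferrin receptor, also belonged here, as did 11 Y-linked genes. The cluster mean had a correlation of 0.81 with log2 library total and of 0.88 with the length class difference. These were 0.43 and 0.44 without d12_f_245 and d12_f_271.

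Cluster 2, the second largest, was lowest in d12_m_276 at -1.81 and d12_m_286 at -1.01 and highest in d12_f_245 and d12_m_307. MAPRE2, which binds growing microtubule ends, was at 5.49 and 14.7 CPM in the former pair and at 35.4 to 86.4 CPM in the other 8. CNN1, a calponin of smooth muscle, was at 0.168 and 1.46 CPM against 4.38 to 15.7 CPM. TAGLN, PTGS2 and TFF1 were in this cluster.

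Cluster 3, with 113 genes, was the endoderm pattern, with HNF4A and NR5A2 among the genes nearest to its mean and 5 markers of the endoderm list. HESX1, a homeobox repressor of the anterior disc and endoderm, ran from 7.96 CPM in d12_f_271 and 14.2 CPM in d12_m_307 to 82.3 CPM in d12_m_275. TMEFF1, a membrane protein that binds growth factors of the TGF-beta family, ran from 4.11 to 70.8 CPM. The cluster mean had a correlation of 0.01 with the library total and of 0.51 with the length class difference (-0.14 and 0.32 without d12_f_245 and d12_f_271), and 47 of its genes were in the longest of 4 equal length classes.

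Cluster 4, with 41 genes, was high in d12_f_271, d12_f_245 and d12_f_289 (1.49, 1.19 and 1.01) and between -0.95 and -0.31 in the other 7. RHOV, a small GTPase, stood at 60.9, 138, 74.7, 25.4 and 18.1 CPM in the females and at 23.5, 12.7, 13.0, 27.3 and 20.4 CPM in the males. NUPR1 and DDIT4 were members as well. In this cluster 28 genes were in the shortest length class and 1 in the longest, and its correlation with the length class difference was -0.89 (-0.66 without d12_f_245 and d12_f_271).

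Gene length class was set by the genomic span in RefSeq, since transcript lengths were not given, with 4 classes of equal size. For each embryo the mean centred log2 CPM of the shortest class (up to 10803 bp) was taken from that of the longest class (over 64437 bp). The difference was -0.76, -0.80, -0.22, 0.16 and 0.23 in the females and 0.24, 0.42, 0.25, 0.36 and 0.10 in the males. It was negative in 3 females and positive in the other 7 embryos. Its SD was 0.45 over the embryos of Day 12, beside 0.11 on Day 10 and 0.12 on Day 8. It was 0.20 without d12_f_245 and d12_f_271. With all embryos, the deviations did not differ at p under 0.05 (two-sided permutation tests, p = 0.0781 and p = 0.107).

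Over the 10 embryos, some lists of short genes followed this difference and others did not. The immediate early and heat shock list, with 17 of 21 genes in the shortest class, had a correlation of -0.35 with it. Without d12_f_245 and d12_f_271, however, that correlation was -0.87. Apolipoproteins and lipid transport, with 7 of 12 genes in that class, had -0.10, and 0.175 without the pair. Ribosomal proteins, with 78 of 82 genes in the shortest class, had levels of 0.78 in d12_f_271, 0.70 in d12_f_245, 0.20 in d12_f_289 and -0.35 to -0.09 elsewhere. As a share of counts the ribosomal proteins took 13.6, 12.4 and 9.10% in these females and 6.65 to 7.35% in the other 7 embryos. The correlation with the length class difference was -0.97 for ribosomal proteins, -0.94 for the mitochondrial ribosome, -0.89 for oxidative phosphorylation and -0.86 for the proteasome. With d12_f_245 and d12_f_271 left out these were -0.78, -0.57, -0.66 and -0.03, so that of the proteasome rested on this pair. NDUFB7, a subunit of respiratory complex I, was at 225 and 233 CPM in d12_f_245 and d12_f_271 and at 62.9 to 141 CPM elsewhere. Fatty acid synthesis and the conceptus signals had correlations of 0.80 and 0.79, which were -0.06 and 0.46 without the pair.

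**Figure D5:**
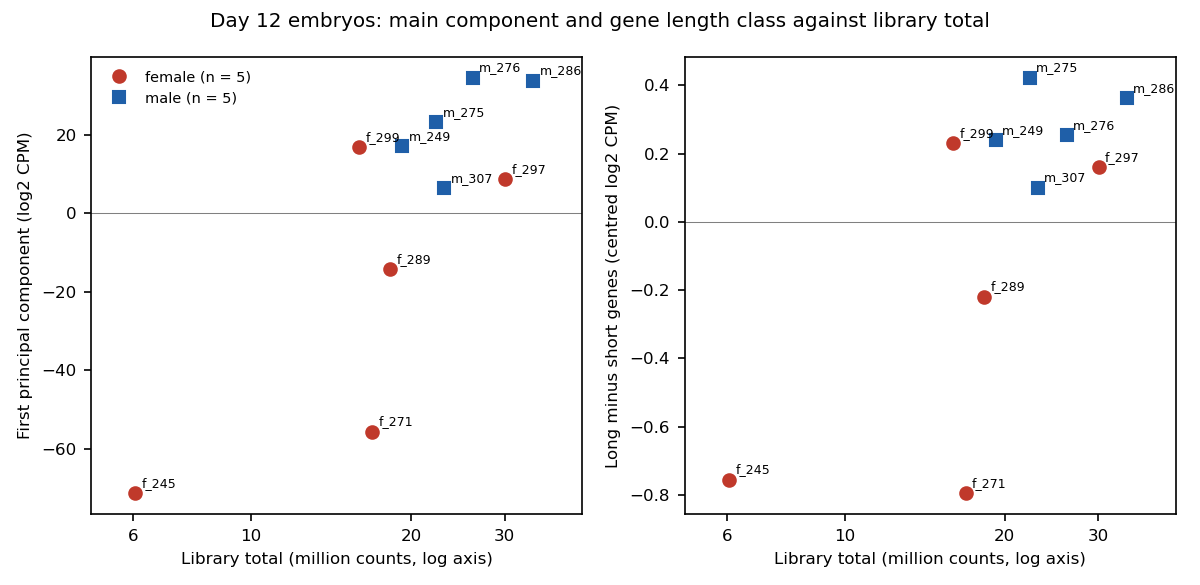
The first principal component (left, vertical axis) and the mean centred log2 CPM of the longest minus the shortest length class (right, vertical axis) against the library total in counts (log axis) for 5 female (red circles) and 5 male (blue squares) Day 12 embryos. In both panels d12_f_245 and d12_f_271 lie far below the other 8, although d12_f_271 has a total close to those of d12_f_289 and d12_f_299.

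The first component and the length class difference were compared with log2 library total over the 10 embryos, among 4 relations tested. The first component had r = 0.80 (permutation p = 0.00375, adjusted p = 0.015) and rho = 0.66 (permutation p = 0.0436, adjusted p = 0.158). The length class difference had r = 0.72 (permutation p = 0.0163, adjusted p = 0.0326) and rho = 0.59 (permutation p = 0.079, adjusted p = 0.158). With the smallest and the largest library left out, r was 0.48 and 0.45 (permutation p = 0.242 and p = 0.279). Without the smallest, d12_f_245, alone r was 0.49 and 0.51 (permutation p = 0.177 and p = 0.155), so both relations rested on that library. Without d12_f_245 and d12_f_271 the first component had r = -0.16 with the total (permutation p = 0.705). The second and the third component had r of -0.27 and -0.22 (permutation p = 0.502 and p = 0.485).

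Gene by gene, 564 of 12220 genes (4.62%) were called higher with a larger library total and 783 (6.41%) lower (edgeR quasi-likelihood test, FDR 0.05). DESeq2 called 1679 higher and 1391 lower. The calls depended on single embryos, most of all on d12_f_245. Without d12_f_245 edgeR called 0 genes, with 304 at an unadjusted p under 0.05, and DESeq2 called 0 as well. Calls were also 0 without d12_m_275, d12_m_276 or d12_m_286, but nearer to the threshold. For IFNG the adjusted p was 0.0518, 0.0667 and 0.0968 without these males, beside 0.769 without d12_f_245 (edgeR quasi-likelihood test). Its slopes were 1.42, 1.30 and 1.46 without the males and 0.75 without d12_f_245. Calls were 0 as well with sex as a further term, with 2371 at an unadjusted p under 0.05, where DESeq2 called 457. Of the lists, ribosomal proteins had 13 of 83 genes called lower, the mitochondrial ribosome 16 of 77 and the proteasome 7 of 44, and none of these had a gene called higher apart from 2 of the proteasome. The called genes with the steepest negative slopes, S100A8, S100G, S100A12, NUPR1 and LOC100625498, were all highest in d12_f_245. The steepest positive slopes among them at 5 CPM or more were those of LOC100522849, at 30.8 to 1551 CPM, and LOC110259250, at 42.1 to 1654 CPM, which lie near each other on chromosome 2 (chr2:10340130-10349422 and chr2:10430342-10438418). Of the called genes, 3 with steeper positive slopes, LOC110258667, LOC102161787 and TEX15, had means of 2.04, 2.47 and 1.34 CPM.

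Sex ran along with these differences. The length class difference had a mean of -0.28 ± 0.49 in the females and 0.28 ± 0.12 in the males (SD, n = 5 each, two-sided exact permutation p = 0.0397 over 252 splits), and the first component differed with an exact permutation p of 0.0317. Log2 total counts were 23.9 ± 0.84 and 24.5 ± 0.31 (exact permutation p = 0.111). Without d12_f_245 and d12_f_271 the length class difference of the sexes was -0.21 (exact permutation p = 0.143). Of the females 3 were low, whereas d12_f_297 and d12_f_299, at 0.16 and 0.23, lay within the male range of 0.10 to 0.42. A part of sex in this difference cannot be told apart from that of the 3 low embryos.

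Few single genes differed between the sexes on Day 12. Of 12220 genes 15 (0.123%) were called (edgeR quasi-likelihood test, FDR 0.05), 2 higher in females and 13 higher in males, of which 12 were on the Y chromosome. DESeq2 called 168 genes, 119 higher in females and 49 in males, so the balance of directions turned with the test. Among the former was TAZ, the X-linked cardiolipin remodelling enzyme, at 37.1 to 51.8 CPM in females and 21.4 to 26.2 CPM in males, with no overlap. Its call was lost in 8 of 10 fits with 1 embryo left out (adjusted p of 0.0811 to 0.163), without d12_f_245 and d12_f_271 (0.172) and with the log2 total as a term (0.211), while the log2 difference stayed at 0.80 to 0.92. The male gene outside the Y chromosome was LOC110260815, placed on chromosome 5, with 0 counts in every female and 2.82 to 4.11 CPM in the males. EIF1AY, a translation initiation factor on the Y chromosome, was at 0 in every female and at 30.9 to 43.8 CPM in the males, so all 10 embryos matched their labels.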

How the data were processed

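Per the study's methods, single-end reads of 100 bases from stranded, poly(A)-selected libraries were trimmed with Trim Galore and mapped in Galaxy to Sscrofa11.1 with the NCBI annotation, and genes under a CPM cutoff were removed. Which aligner and counter were used, and the cutoff's value, is not given in the sources used here. The authors deposited unnormalized counts of reads, with genes named by their NCBI numbers. Symbols, positions and spans were taken from RefSeq Sscrofa11.1, where all 12220 genes of the Day 12 table matched. Depth was 6059221 to 33990421 counts per embryo, and low counts limit the smaller libraries most.

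From the counts, TMM factors, CPM and log2 CPM (prior count 2) were computed with edgeR 4.0.16 in R 4.3.3. Tests were edgeR quasi-likelihood tests with robust dispersion and Benjamini-Hochberg adjustment, within Day 12 (FDR 0.05) and in a joint fit of 30 embryos between days (FDR 0.001, absolute log2 change over 1). Relations with the total used 100000 permutations, and sexes were compared over all 252 splits. The scripts were tested on simulated data. Alternatives were DESeq2 1.42.0, a robust likelihood ratio test, other size factors, prior counts and filters, sex as a term and leaving out embryos.

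Genes were named by rule: the 20 most abundant, the 30 most variable at a mean of 5 CPM or more, the 3 most abundant and 3 most variable of each of 27 lists, 5 genes per direction of each Day 12 test and 8 per cluster (average linkage on 1 minus r, 6 clusters). A few others were named after their values were seen (PDGFRA, POU5F1, IL1B2, HESX1 and neighbours of named genes). The members and lists were chosen with earlier results of these data known. Some genes are not reported here.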

Additional observations from a re-analysis of the deposited data

Results flagged for a closer look

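For 45 of 162 measures tested, 1 embryo stood apart from the other 9, its gap to the next embryo being a larger part of the whole range than Dixon's 95% critical value for 10 samples. For normal values chance flags about 1 in 20 groups. Genes were tested on CPM without logs, where high values stretch the range, so chance can flag more of them at the high end. Many of these genes were also chosen for their spread.

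The embryo d12_f_245 stood apart 16 times. Its log2 total count of 22.531 was 1 of 3 values flagged as lowest in it, with the histone level at -0.38315 and DAB2 at 431.34 CPM. It was highest for S100A8 (73.358 CPM, next 3.901), S100A12 (27.71 CPM), S100G (28.831 CPM), NUPR1 (126.54 CPM) and UTF1 (53.017 CPM). Among lipid carriers it was highest for APOA1 (6672.6 CPM), APOE (2889.8 CPM) and APOA2 (180.83 CPM). The growth factor FGF7 reached 27.71 CPM there, the ferritin light chain FTL 6611.4 CPM, CDC42EP2 40.203 CPM, POU5F1 4.4848 CPM and the uncharacterised LOC110255255 181.79 CPM.

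The embryo d12_m_307 stood apart 9 times. Its sterol synthesis level was 1.1828, with HMGCS1 at 623.34 CPM and SCD at 2139.7 CPM. PTGS2 was at 2846 CPM (next 609.84), the neuropeptide NMU at 31.604 CPM and LIN28A, a regulator of let-7 miRNAs, at 158.59 CPM. Among class I histocompatibility genes SLA-2 was at 32.13 CPM and B2M at 37.108 CPM. The blood marker level, which rests on 1 gene, was lowest there at -5.2053.

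The embryo d12_m_276 was highest for PAG6 (16864 CPM), LOC100522849 (1550.7 CPM), LOC110259250 (1653.7 CPM), LOC396866 (58.334 CPM), KCNJ15 (200.46 CPM), EPOR (45.459 CPM) and WNT7B (27.049 CPM). The embryo d12_f_271 was highest for EEF1A1 (17016 CPM), KRT19 (8843.1 CPM), KRT18 (8830.3 CPM), RHOV (138.19 CPM), the homeobox gene MSX2 (240.84 CPM) and the level of oxidative phosphorylation (0.69583).

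In d12_f_289 the glycolysis and hypoxia level was 0.45015, with NDRG1 at 369.14 CPM and DDIT4 at 44.056 CPM. GSTA1 (40.902 CPM) and APOC3 (24.226 CPM) were highest in d12_f_297, KRT15 (77.802 CPM) in d12_f_299 and SPP1 (21.802 CPM) in d12_m_275.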

How the results depend on the processing

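The genes following the library total depended most on the setting. Against 1347 calls, DESeq2 called 3070, and sex as a further term left 0 by edgeR (2371 at an unadjusted p under 0.05) and 457 by DESeq2. Without d12_f_245, and without d12_f_245 and d12_f_271 together, both tools called 0, where edgeR had 304 and 39 genes at an unadjusted p under 0.05. Leaving out 1 embryo gave 0 to 2433 calls: 0 without d12_f_245, d12_m_275, d12_m_276 or d12_m_286 (4293, 3961 and 3509 at an unadjusted p under 0.05 for these males), 70 without d12_m_249, 469 without d12_m_307, 700 without d12_f_289, 2170 without d12_f_299 and 2433 without d12_f_271. With library size alone as scaling, 28.7% of the calls were higher, beside 41.9%, whereas with DESeq2 54.7% were, and with sex as a term in DESeq2 60.6%. The cause was not tested.

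Between the sexes DESeq2 called 168 genes (70.8% higher in females) and a robust likelihood ratio test 101 (56.4%), beside 15 (13.3%), and leaving out 1 embryo gave 14 to 16. A filter at a mean of 5 CPM left 1773 calls against Day 10 and 2517 against Day 8, since fewer genes were tested, beside 3050 and 4255. Leaving out 1 embryo gave 2963 to 3083 and 4147 to 4348. With library size alone, 72.9% of the calls against Day 10 were higher, beside 64%, and the median of all genes moved from 0.04 to 0.24 (log2).

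The correlation of the first component with the total was 0.49 to 0.895 with 1 embryo left out (permutation p = 0.177 without d12_f_245) and reversed to -0.158 without d12_f_245 and d12_f_271. For the length class difference it was 0.51 to 0.851 (permutation p = 0.155 without d12_f_245) and 0.368 without both (permutation p = 0.387). The difference between the sexes in length class, -0.552, was -0.513 at a mean of 1 CPM or more (exact permutation p = 0.0556), -0.215 without both and -0.679 to -0.422 with 1 embryo left out. Its exact permutation p was 0.0714 to 0.0873 without d12_m_249, d12_m_275, d12_m_276 or d12_m_286. The median SD was 0.262 without both and 0.331 to 0.401 with 1 embryo left out.

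After removal of the length class difference, endoderm and lipid carriers had r = 0.952, trophectoderm and interferon response -0.953, and ribosomal proteins and oxidative phosphorylation 0.703, beside 0.943. At a mean of 1 CPM or more, endoderm had r = 0.966 with lipid carriers and 0.781 with matrix. Without both embryos, the former was 0.935. At a mean of 20 CPM or more, trophectoderm and interferon response had r = -0.453, and endoderm and mesoderm -0.00698. With 1 embryo left out, r was 0.842 to 0.97 for endoderm and matrix, 0.939 to 0.99 for ribosomal proteins and oxidative phosphorylation, -0.908 (without d12_m_307) to -0.43 (without d12_f_271) for trophectoderm and endoderm, and -0.188 to 0.421 for endoderm and mesoderm, negative without d12_f_289 (-0.0241), d12_m_276 (-0.188) or d12_m_286 (-0.0636).

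Of the SDs of 50 named genes, 17 moved by more than the limit with 1 embryo left out and 17 of 49 without both, such as IFNG, from 1.10 to 0.43, and FN1, from 1.37 to 0.96. Leaving out both embryos, sex as a term in DESeq2 and the DESeq2 fits without embryos were chosen after seeing the data. Coding lengths were not given, so that alternative was not run. No paired analysis was possible because the embryos share no replicate numbers and the gilt of an embryo is not stated, although littermates are among them.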
